A study of Macaca mulatta with 144 samples.

Results

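The sera examined here were drawn from 24 rhesus macaques (NHPs, Macaca mulatta of the Chinese sub-strain) before any irradiation, and the question was whether miRNA levels already differed between animals that later survived and animals that later died. The 24 libraries were chosen from the sample labels alone, as the pre-irradiation libraries of all animals later given 6, 6.5, 7 or 7.5 Gy, out of 144 libraries in the series. By the labels 13 of these animals survived and 11 were deceased. The animals of 8 and 8.5 Gy (2 survivors and 10 deceased) were left out of the main comparison because each of those doses held a single survivor.

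The series followed 36 NHPs with serum small RNA sequencing before total body irradiation (TBI) and again on 3 later days (1, 2 and 6), and recorded which animals survived. Both groups compared here were unirradiated and untreated at the time of the draw and of the same sub-strain. Among survivors 5 were female and 8 male, and among deceased animals 8 were female and 3 male. At 6 Gy there were 4 survivors and 2 deceased animals, at 6.5 Gy 3 of each, at 7 Gy 2 survivors and 4 deceased, and at 7.5 Gy 4 survivors and 2 deceased. All 4 survivors at 7.5 Gy were male and both survivors at 7 Gy were female. The animals later received gamma radiation and full supportive care, and moribund animals were euthanized, so the outcome label includes euthanasia. The study reported as survived the animals alive at a set day after irradiation. Its text counts more survivors at 7 Gy or lower than the labels do, while its count of moribund animals equals that of deceased labels. Which outcome differs cannot be told, and the labels are used here. Ages of single animals and sequencing batches were not given in the sources used here.

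miRNAs are short RNAs that bind messenger RNAs and lower their translation or stability. They are released from blood cells, liver, vessel walls and other tissues and persist in serum inside vesicles or bound to protein. Red blood cells hold large amounts of a few miRNAs, among them miR-486-5p, miR-451 and miR-92a-3p, and lysis of red blood cells during blood collection adds these to serum. In serum, a release from fewer cells and a smaller release per cell cannot be told apart.

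Total counts ran from 24225 to 1018281 in survivors (median 164590) and from 82153 to 2921832 in deceased animals (median 417325). Of the 908 miRNAs in the table, 109 to 403 had a count in a library. The pre-irradiation library of RA2265F (7 Gy, deceased) held exactly the same counts as a day 1 library of another animal (RA2694M, 8 Gy), with 82153 counts each, and which animal these counts belong to cannot be told from the files. The library of RA2709M (7.5 Gy, survived) was the shallowest. Values without these libraries are given where they moved a result past a threshold, and for the members described in most detail. Levels are log2(CPM + 1), where CPM are counts scaled to a common library size with TMM factors (a correction for differences in library composition). log2 (Fold change) values are survivors over deceased animals, with dose as a factor, so negative values mean lower levels in survivors.

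No miRNA separated survivors from deceased animals before irradiation at the chosen threshold. Of 290 miRNAs tested, 0 had an adjusted p under 0.05 in the edgeR quasi-likelihood test (0.00%). An unadjusted p under 0.05 was found for 15 miRNAs (5.17% of those tested, where the threshold itself allows 14.5), of which 12 were lower in survivors (4.14%) and 3 higher (1.03%). DESeq2 called 2 miRNAs with 14 at an unadjusted p under 0.05, limma called 0 with 14 at an unadjusted p under 0.05, and the exact permutation of outcomes within doses called 0 with 15. Scaling moved these counts. With library totals in place of TMM factors 20 miRNAs had an unadjusted p under 0.05, 19 of them higher in survivors and 1 lower, and 4 were shared with the 15. The median log2 (Fold change) of all 290 miRNAs was 0.12 with TMM factors and 0.81 with library totals. Directions below are given with TMM factors, and exceptions are named.

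Among miRNAs counted in 12 or more of the 24 libraries, the 12 with the smallest p were all lower in survivors. Since the same values chose them, their common direction is a description only. miR-18a-3p and miR-92a-3p are products of the miR-17/92 cluster, which drives proliferation of blood cell precursors. miR-182 belongs to the miR-183/96/182 cluster, and miR-185-5p is abundant in red blood cells. miR-423-3p, miR-652, miR-328, miR-130b-5p, miR-1180-3p, miR-1306-5p, miR-1260b and miR-636 made up the rest.

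miR-18a-3p, the passenger arm of miR-18a, had the smallest p. Its level in survivors had a low of 0, a median of 2.69 and a high of 6.27, and in deceased animals 2.92, 4.74 and 8.26. It had a count in 8 of 13 survivors (50 counts in all) and in 11 of 11 deceased animals (263 counts). The groups overlapped, with the 2 highest survivors RA2709M and RA1938M both at 7.5 Gy. The high of 6.27 in RA2709M rested on 1 count, and 146 of the 263 counts in deceased animals came from the deepest library, RA0456F. The log2 (Fold change) was -2.61 (SE 0.69, 95% interval -4.01 to -1.21, p = 0.00061, adjusted p = 0.177). It was -2.73 without RA2265F and RA2709M, and over all alternatives the value ran from -3.66 to -0.81. The adjusted p was 0.0174 with DESeq2, 0.549 with library totals and 0.938 in the exact permutation test, and ran from 0.00773 to 0.999 over all alternatives. The other arm, miR-18a-5p, differed by 0.13 (SE 0.65, p = 0.839).

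miR-182 had a count in every one of the 24 libraries. Its level had a low of 3.42, a median of 4.89 and a high of 8.53 in survivors, and 4.77, 6.23 and 9.46 in deceased animals. At 6.5 Gy the 3 survivors (3.42 to 3.94) lay below the 3 deceased animals (6.09 to 7.92), whereas at 7.5 Gy the survivors (4.44 to 6.88) spanned both deceased animals (5.10 and 6.80). The highest survivor, RA2445M at 6 Gy, had 8 counts in a library of 95846. The log2 (Fold change) was -2.10 (SE 0.61, 95% interval -3.34 to -0.86, adjusted p = 0.227). Without RA2265F and RA2709M it was -2.19. Leaving out RA2445M brought the adjusted p to 0.0353, DESeq2 gave 0.0260, and with library totals the log2 (Fold change) was -1.06. Its cluster partner miR-183-5p differed by -0.17 (SE 1.01, p = 0.864).

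miR-92a-3p was the most abundant of the 12 and a member of both the miR-17/92 and the red blood cell lists. Its level had a low of 14.00, a median of 14.77 and a high of 18.38 in survivors, and 14.22, 16.21 and 18.45 in deceased animals. At 6.5 and 7 Gy every survivor lay below every deceased animal, and at 6 and 7.5 Gy the groups overlapped. The log2 (Fold change) was -1.12 (SE 0.52, 95% interval -2.17 to -0.06, adjusted p = 0.793), -1.13 without RA2265F and RA2709M, and -0.41 with library totals. miR-652 had levels with a low of 5.56, a median of 6.69 and a high of 8.46 in survivors against 5.91, 7.81 and 9.22 in deceased animals, and its log2 (Fold change) was -1.13 (SE 0.40, adjusted p = 0.456). Its survivors lay below its deceased animals at 6 and 6.5 Gy and overlapped them at 7 and 7.5 Gy. With library totals its value was -0.09.

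**Figure D1:**
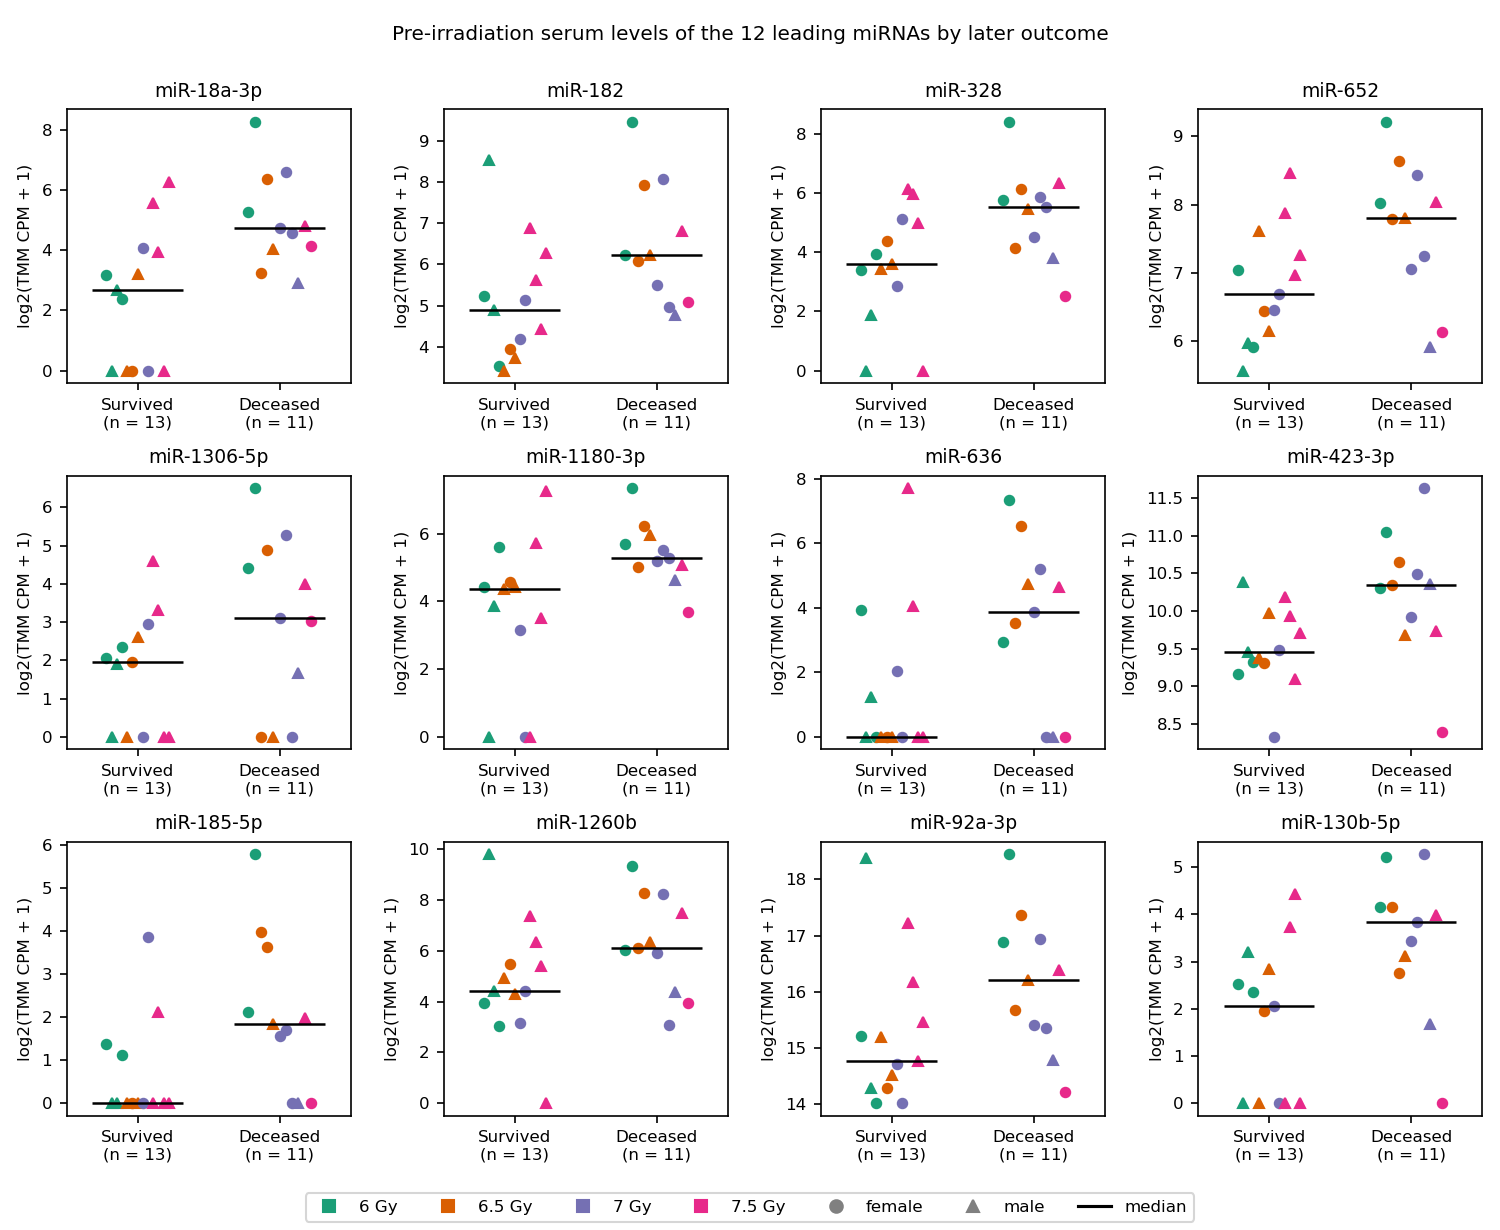
Pre-irradiation levels, log2(TMM CPM + 1), of the 12 leading miRNAs in 13 survivors and 11 deceased animals, with one point per animal, colour for the later dose, circles for females, triangles for males and a line at the median. The median of survivors is lower in all 12 panels, and the groups overlap in each.

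Of the remaining leading miRNAs, miR-636 had the most negative log2 (Fold change), -2.75 (SE 1.12, adjusted p = 0.656), with a count in 5 survivors and 8 deceased animals. miR-1306-5p (-1.98), miR-185-5p (-1.96), miR-328 (-1.78), miR-1260b (-1.64), miR-1180-3p (-1.35), miR-130b-5p (-1.28) and miR-423-3p (-0.76) followed on the same log2 scale. Without RA2265F the unadjusted p of miR-130b-5p moved from 0.0440 to 0.0597, and the p of the other 11 stayed under 0.05. With library totals the size of all 12 values moved by more than 1.5 times, and miR-182 alone kept an unadjusted p under 0.05. miR-1180-3p was then -0.11, miR-130b-5p -0.09, miR-328 -0.57, miR-185-5p -0.71, miR-1306-5p -0.71, miR-1260b -0.80 and miR-636 -1.44, and miR-423-3p changed sign to 0.19. Single animals also decided part of the size. Without RA0724F, a deceased female at 6 Gy, miR-185-5p was -1.07, miR-328 -1.19 and miR-636 -1.67. Without RA2284F miR-185-5p was -2.99, and without RA2445M miR-1260b was -2.63. In males alone miR-423-3p was 0.04 and miR-1306-5p was 0.16. Of the other arms of these precursors, miR-423-5p differed by -0.13 (SE 0.30), miR-130b-3p by 0.01 (SE 0.37) and miR-185-3p by 0.51 (SE 0.79).

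The 3 miRNAs higher in survivors at an unadjusted p under 0.05 were rare and fell outside the 12. miR-149-5p had a count in 8 survivors (41 counts) and 3 deceased animals (8 counts), and its log2 (Fold change) was 2.61 (SE 0.83, adjusted p = 0.333). miR-376a-1-5p differed by 1.83 (SE 0.79) and miR-452-5p by 1.77 (SE 0.73), each with a count in 6 survivors and 3 deceased animals. All 3 stayed positive with library totals.

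Within the 12 leading miRNAs the order of survivors and deceased animals varied between the doses, which none of these animals had yet received. At 6 Gy 7 of the 12 leading miRNAs had every survivor below every deceased animal (4.14% of all 290), at 6.5 Gy 8 (6.55%), at 7 Gy 3 (5.86%) and at 7.5 Gy 0 (10.7%). These miRNAs were chosen on the same contrast, so the counts are a description. Mean levels were lower in survivors for 12, 12, 11 and 7 of the 12. For miR-18a-3p the difference in mean level was -4.70 at 6 Gy, -3.47 at 6.5 Gy, -2.67 at 7 Gy and -0.52 at 7.5 Gy. For miR-652 it was -2.50, -1.34, -0.59 and 0.56. Sex also varied between these groups: both deceased animals at 6 Gy were female and all 4 survivors at 7.5 Gy were male. The groups within a dose held 2 to 4 animals, and the interaction of outcome and dose was not past the threshold for any of the 12 (edgeR p = 0.0788 for miR-18a-3p and 0.0817 for miR-652 before adjustment).

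Total counts, the share of miR-486-5p and the haemolysis score were lower in survivors and the TMM factor higher, each within the spread between animals. miR-486-5p, the most abundant miRNA, took 52.4% to 88.1% of the counts in survivors (median 68.6%) and 58.1% to 89.7% in deceased animals (median 79.4%). Within doses the share was 9.04 percentage points lower in survivors (exact permutation p = 0.0936 over 67500 arrangements, adjusted p = 0.206 over 5 measures). The haemolysis score, which sets the red blood cell miR-451 against miR-23a-3p as a log2 ratio of their levels, had a median of 3.76 in survivors (range 2.19 to 5.42) and 4.38 in deceased animals (2.24 to 6.49), a within-dose difference of -0.71 (exact p = 0.140, adjusted p = 0.206). The log2 TMM factor was 0.70 higher in survivors (exact p = 0.165) and the log10 total count 0.33 lower (a difference of -0.33, exact p = 0.0855). Without RA2265F, whose counts may belong to another animal, the difference in log10 total count was -0.39 (exact p = 0.0397, adjusted p = 0.199). The number of miRNAs with a count differed by -8.67 (exact p = 0.804). With arrangements within doses and sexes the share of miR-486-5p differed by -14.0 percentage points (exact p = 0.0181, adjusted p = 0.0648 over 2700 arrangements). The log2 TMM factor then differed by 1.13 (exact p = 0.0389) and the haemolysis score by -1.07 (exact p = 0.0374), each with an adjusted p of 0.0648. With the haemolysis score as a covariate 11 miRNAs had an unadjusted p under 0.05, 9 higher and 2 lower, and 5 were among the 15. Of the 12 leading miRNAs, miR-18a-3p (-1.95) and miR-182 (-1.55) kept an unadjusted p under 0.05 with this covariate. The values of 9 of the 12 moved by more than 1.5 times. miR-92a-3p went from -1.12 to -0.55 (p = 0.290), miR-328 from -1.78 to -0.75, miR-652 from -1.13 to -0.61 and miR-423-3p from -0.76 to -0.37. Levels of the leading miRNAs also moved with the TMM factor over the 24 libraries: the median Pearson correlation with the log2 TMM factor was -0.52 over the 12 and 0.39 over all 290, and -0.89 for miR-92a-3p and -0.85 for miR-182. Counts are divided by this factor, so it enters both sides. With levels scaled by library totals the medians were 0.04 and 0.70. The part of red blood cell release in the leading differences was not tested beyond this.

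**Figure D2:**
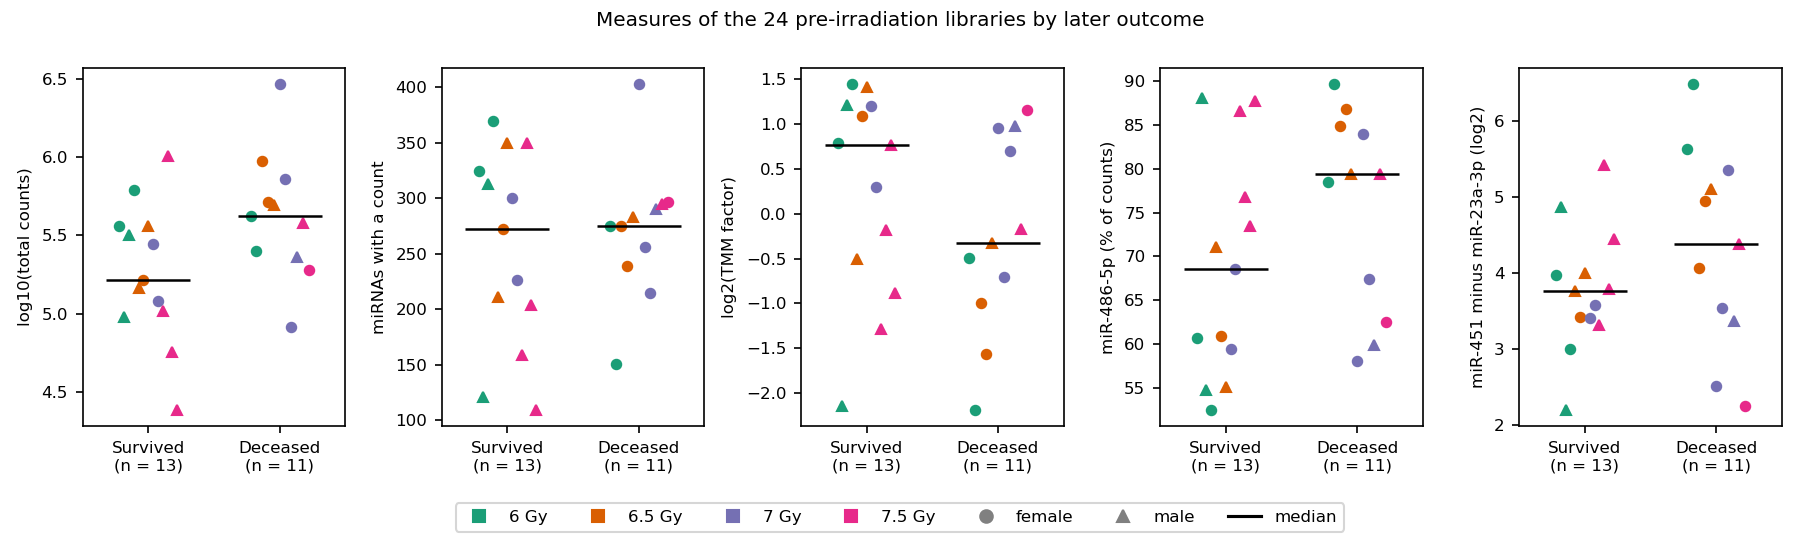
Total count, number of miRNAs with a count, TMM factor, share of miR-486-5p and haemolysis score of the 24 pre-irradiation libraries, with one point per animal, colour for the later dose, circles for females, triangles for males and a line at the median. The median share of miR-486-5p is 68.6% in survivors and 79.4% in deceased animals, with ranges that overlap.

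No list of miRNAs by source had a member past the adjusted threshold. Of 10 red blood cell miRNAs tested, 9 were lower in survivors, 2 of them at an unadjusted p under 0.05 (miR-185-5p and miR-92a-3p), and the median log2 (Fold change) was -0.26 against 0.12 over all 290. miR-486-5p itself differed by -0.74 (SE 0.57), miR-451 by -0.23 (SE 0.40) and miR-144 by -0.21 (SE 0.41). The sum of red blood cell miRNAs took 59.8% to 96.2% of the counts in survivors and 68.2% to 97.7% in deceased animals. Of all 290 miRNAs 109 (37.6%) were lower in survivors.

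White blood cell miRNAs were mostly higher in survivors, with 0 at an unadjusted p under 0.05 in edgeR. Of all 290 miRNAs 181 were also higher in edgeR, while limma with a pseudocount of 1 had 54.8% lower. All 7 myeloid miRNAs had positive values (median 0.42), led by miR-146b-5p (1.07, p = 0.0780) and including miR-223 (0.35, SE 0.41), and 0 of 7 had an unadjusted p under 0.05. Of 9 lymphocyte miRNAs 6 were positive and 3 negative, with miR-150-5p, a marker of mature lymphocytes, at -0.52 (SE 0.34, p = 0.136). Its other arm, miR-150-3p, was at 0.48 (SE 0.61). The smallest p of this list in edgeR was that of miR-146a-5p (0.92, SE 0.53, p = 0.0916). With library totals the whole distribution moved upward, so these signs are relative to the TMM scale. Platelet and endothelial miRNAs had a median of 0.06 over 6 tested, with miR-126 at 0.11 (SE 0.34). Summed, the myeloid list took 0.06% to 1.97% of the counts in survivors and 0.02% to 1.71% in deceased animals.

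Tissue lists also had no member at an unadjusted p under 0.05. The median log2 (Fold change) was -0.33 for 4 liver miRNAs, -0.15 for 5 muscle miRNAs, 0.42 for 8 epithelial miRNAs, 0.51 for 4 islet and neural miRNAs and 0.04 for 6 p53-responsive miRNAs. It was 0.16 for the 42 tested miRNAs of the imprinted DLK1-DIO3 region, -0.03 for the 9 let-7 family members and 0.17 for the 5 miR-30 members. For the 14 miRNAs of the miR-17/92 cluster and its paralogs it was -0.15, with 2 of 14 at an unadjusted p under 0.05. The 2 top survival panels of the study and the hubs of its survival networks held 13 miRNAs, without the members of its other panels. Of these 13, 7 were higher and 6 lower before irradiation (181 and 109 of all 290). miR-92a-3p was the one with an unadjusted p under 0.05 in edgeR. The study computed its changes against the pre-irradiation samples and over all doses, so its values are not the baseline levels compared here. The study chose those 13 on these animals, so they are no independent set. Among them miR-141-3p, an epithelial miRNA, differed by 0.72 (p = 0.179), miR-106b-3p by -0.67 (p = 0.154) and miR-376c-3p by 0.05 (p = 0.929).

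In females alone 7 of 290 miRNAs had an adjusted p under 0.05 (2.41%, with 9.31% at an unadjusted p under 0.05), all lower in the 5 survivors than in the 8 deceased females. The only female at 7.5 Gy, RA2745F, was deceased, so with dose as a factor she did not inform the fold changes. At 6.5 Gy the females held 1 survivor. They were miR-92a-3p, miR-92b-3p, let-7b-5p, miR-18a-3p, miR-182, miR-1260b and miR-636. miR-92a-3p had levels of 14.00 to 15.21 in surviving females (median 14.28) and 14.22 to 18.45 in deceased females (median 16.28), and its log2 (Fold change) was -2.37 (SE 0.56, adjusted p = 0.00773). The low of 14.22 was that of RA2745F. miR-18a-3p had levels of 0 to 4.07 in surviving females and 3.23 to 8.26 in deceased females, and its log2 (Fold change) was -3.66 (SE 0.88, adjusted p = 0.00773). let-7b-5p, a let-7 family member, differed by -2.49 (SE 0.65, adjusted p = 0.0166). Levels of survivors and deceased females overlapped for every one of the 290 miRNAs.

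The 7 calls in females depended on single animals and on scaling. Without RA0724F (6 Gy) or without RA2257F (7 Gy), both deceased, 0 miRNAs were called (23 and 21 at an unadjusted p under 0.05). Without RA2265F there were 9 calls, without RA0529F 3, without RA2740F 4, without RA2284F 13 and without RA0456F 11. With library totals 0 were called, with 88 at an unadjusted p under 0.05 and a median log2 (Fold change) of 1.60, and DESeq2 called 13. The exact permutation within doses, with 180 arrangements, called 0, with 24 at an unadjusted p under 0.05. Its smallest possible p was 0.00556, and at least 33 of the 290 miRNAs would have had to reach it for any call, so this 0 says little about the 7. Deceased females also had a higher share of miR-486-5p (58.1% to 89.7%, median 81.3%) than surviving females (52.4% to 68.6%, median 60.7%), and a median haemolysis score of 4.51 against 3.42. The part of library composition in the 7 calls was not tested further.

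In males (8 survivors, 3 deceased) 0 miRNAs were called, with 8 at an unadjusted p under 0.05 (2.76%). There was no deceased male at 6 Gy and no surviving male at 7 Gy. With dose as a factor, all values for males alone therefore rested on 6.5 Gy (2 survivors, 1 deceased) and 7.5 Gy (4 survivors, 1 deceased). miR-182 was -1.77 (SE 1.00) in males and -3.16 (SE 0.74) in females, and miR-92a-3p was -0.75 (SE 0.91) in males. The difference between sexes was itself not past the threshold: the interaction of outcome and sex had 0 miRNAs with an adjusted p under 0.05 and 14 at an unadjusted p under 0.05 (4.83%), and DESeq2 called 0. For miR-92b-3p the interaction in edgeR was 2.63 on the log2 scale, males over females (SE 1.05, p = 0.0176, adjusted p = 0.920). For miR-192-5p it had the opposite sign, -2.97 (SE 0.89, p = 0.00214, adjusted p = 0.620). In males miR-122a-5p differed by -4.78 (SE 1.18, edgeR adjusted p = 0.0651), against 1.93 (SE 1.28) in females. A larger difference in females is therefore not shown by these animals.

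**Figure D3:**
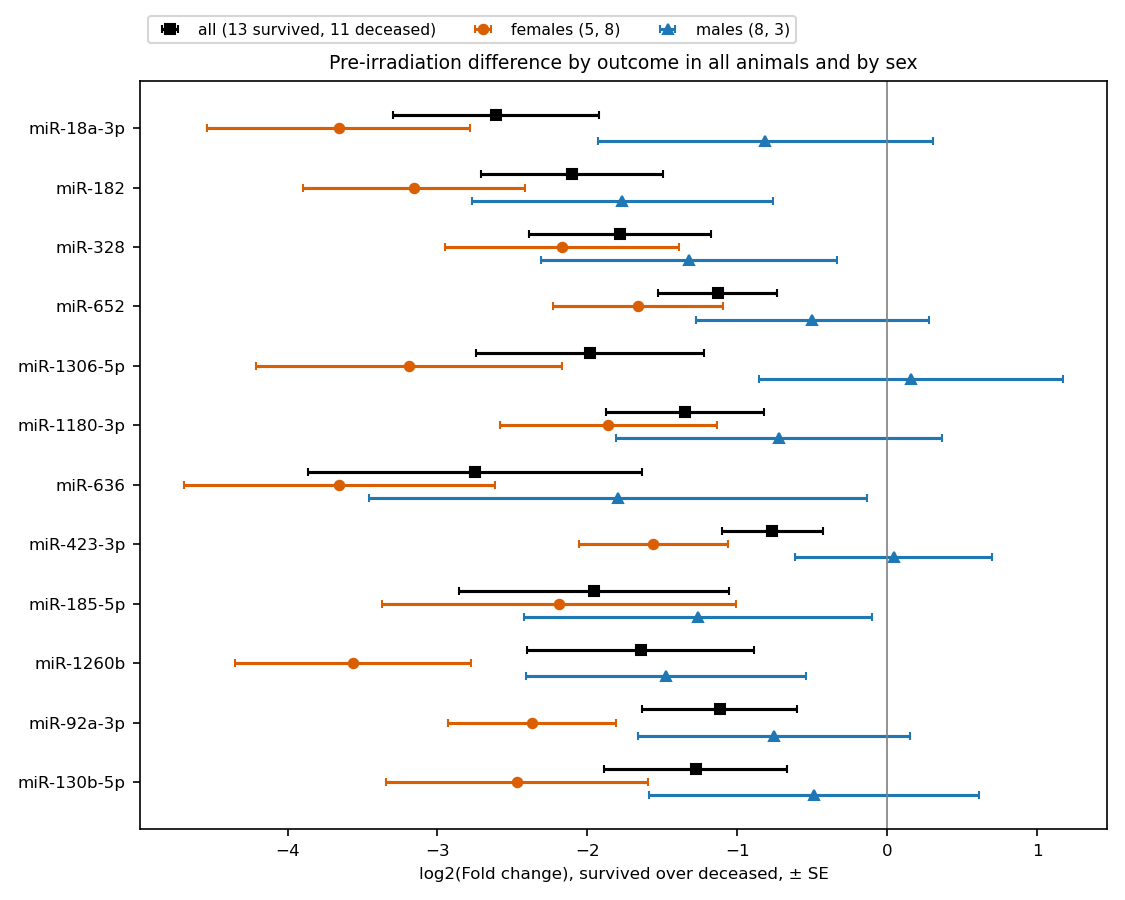
log2 (Fold change) of survivors over deceased animals before irradiation with its SE for the 12 leading miRNAs, in all 24 animals (squares), in females (circles, 5 survivors and 8 deceased) and in males (triangles, 8 and 3). With dose as a factor, female values rest on 6, 6.5 and 7 Gy and male values on 6.5 and 7.5 Gy, the doses with both outcomes. The female values are the most negative for all 12, and the male values of miR-1306-5p and miR-423-3p lie just above 0.

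For 2 miRNAs the relation of level to outcome differed between doses before any dose was given. miR-192-5p, made in liver and intestinal epithelium, and miR-122a-5p, the main hepatocyte miRNA, both had an adjusted p of 0.0116 for the interaction of outcome and dose in edgeR (2 of 290, 0.690%), and 30 miRNAs (10.3%) had an unadjusted p under 0.05. At 7 Gy the surviving RA2284F had a miR-192-5p level of 13.71 and the surviving RA2021F 10.88, above the 4 deceased animals (9.84 to 10.49). At 7.5 Gy the order was the opposite, with both deceased animals at 12.98 and 13.17 and the 4 survivors at 9.88 to 11.39. At 6.5 Gy the deceased animals (11.04 to 12.52) and survivors (10.03 to 11.72) overlapped, as they did at 6 Gy. Sex was partly tied to dose, with survivors all female at 7 Gy and all male at 7.5 Gy. miR-192-5p differed by 1.32 (SE 0.61) in females and by -2.09 (SE 0.61) in males. miR-122a-5p differed by 1.93 (SE 1.28) in females and by -4.78 (SE 1.18) in males. A dependence on dose and one on sex therefore cannot be told apart for these 2 miRNAs.

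miR-122a-5p was counted sparsely, with 0 to 49 counts in a library. At 7 Gy it had 27 counts in RA2284F (level 7.53) and 0 in 3 of the 4 deceased animals. At 7.5 Gy the deceased RA2691M had 23 counts (level 6.12) and the survivors 0 to 4 counts, and at 6.5 Gy the deceased RA2267F had the highest level, 8.14. Without RA2284F no interaction was called: the adjusted p became 0.450 for miR-192-5p and 0.491 for miR-122a-5p. Leaving out any other animal kept both. DESeq2 kept miR-192-5p (adjusted p = 3.24e-05) and not miR-122a-5p (0.183). Averaged over doses, the 95% intervals of both included 0, with a log2 (Fold change) of -0.26 (95% interval -1.32 to 0.79) for miR-192-5p and -0.58 (-3.09 to 1.94) for miR-122a-5p. In RA2284F the level of miR-192-5p was 9.46 and 9.27 on days 1 and 2, and 11.40 on day 6.

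**Figure D4:**
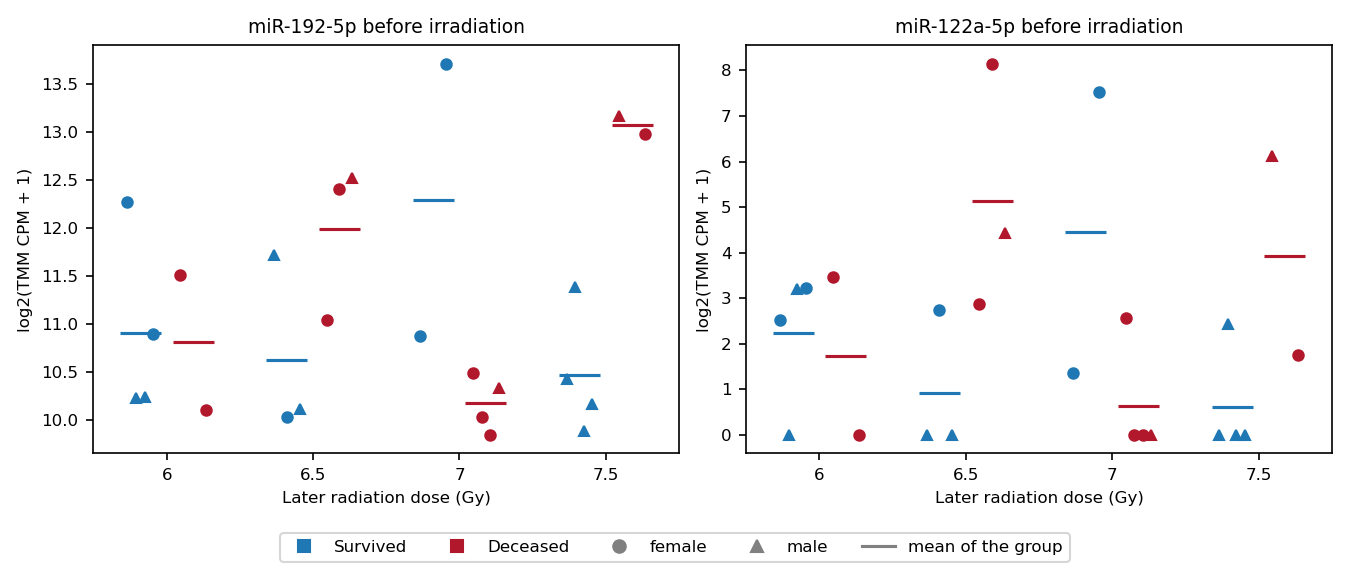
Pre-irradiation levels, log2(TMM CPM + 1), of miR-192-5p and miR-122a-5p by the dose given later, with survivors in blue, deceased animals in red, circles for females, triangles for males and a line at the mean of each group. Means of survivors are higher at 7 Gy, where one survivor has a miR-192-5p level of 13.71, and lower at 7.5 Gy. The miR-122a-5p levels of survivors and deceased animals overlap at both doses. Survivors are all female at 7 Gy and all male at 7.5 Gy.

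The same contrast was fitted in the same 24 animals on the later days, whose libraries are separate from the pre-irradiation ones. Adjusted p under 0.05 was reached by 0 miRNAs on day 1, day 2 or day 6, and unadjusted p under 0.05 by 4 (1.38%), 7 (2.41%) and 35 (12.1%) in edgeR. The 12 leading miRNAs were lower in survivors in 9 cases on day 1, 7 on day 2 and 12 on day 6, against 141 (48.6%), 127 (43.8%) and 150 (51.7%) of all 290. On day 6 5 of the 12 had an unadjusted p under 0.05, and their log2 (Fold change) values lay between -2.55 and -0.61. miR-182, at -2.10 before irradiation, had values of -0.27 and 0.03 on the first 2 days and of -2.43 on day 6 (SE 0.93, p = 0.0121, adjusted p = 0.260). miR-652 was -1.13, -0.10, -0.54 and -1.09 on these occasions.

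Not every value returned on day 6. miR-18a-3p, at -2.61 before irradiation, had values of 0.01 and 0.54 on days 1 and 2 and of -1.38 (SE 0.86, p = 0.115) on day 6. miR-149-5p turned from 2.61 before irradiation to -3.62 (SE 1.08, p = 0.00163, adjusted p = 0.236) on day 6. On day 6 the log2 TMM factor was 0.76 higher in survivors (exact p = 0.134), near the 0.70 before irradiation, while it differed by 0.11 on day 1 and 0.10 on day 2. With library totals 4 of the 12 were lower in survivors on day 6 against 9.66% of all 290, 7 on day 2 against 39.0% and 8 on day 1 against 45.5%. The median log2 (Fold change) of all miRNAs on day 6 was then 0.94, so the signs of the 12 on that day depended on the scaling.

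**Figure D5:**
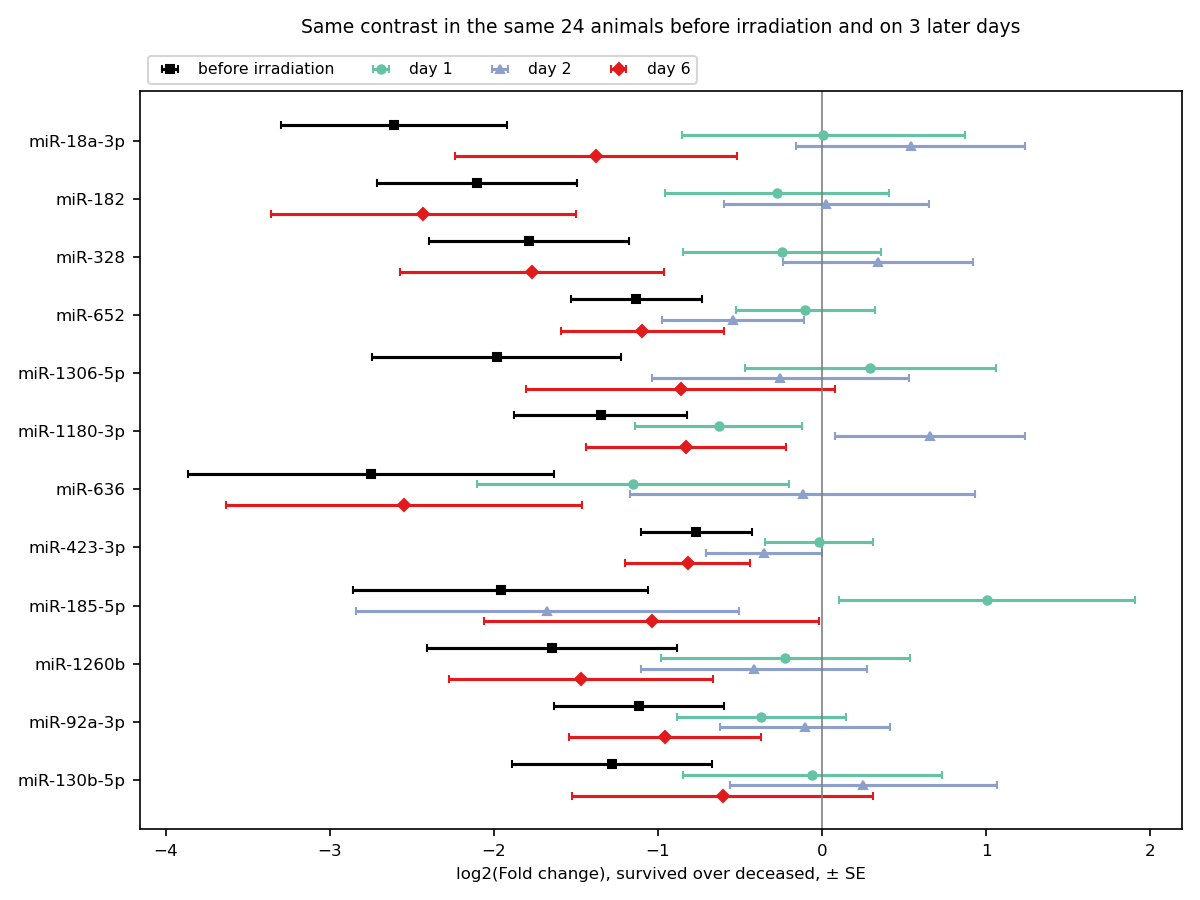
log2 (Fold change) of survivors over deceased animals with its SE for the 12 leading miRNAs in the same 24 animals, before irradiation (squares), on day 1 (circles), day 2 (triangles) and day 6 (diamonds). With TMM factors all 12 values are below 0 in the pre-irradiation and day 6 sera (11 and 4 of the 12 with library totals), and those of days 1 and 2 lie on both sides of 0.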

How the data were processed

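The authors prepared small RNA libraries from serum, used Genomics Workbench to trim reads and to count them by mature miRNA of the NHP in miRBase, and deposited the raw counts of 908 miRNAs in 144 libraries, without normalization. The genome build behind these NHP counts and the sequencing batches are not given in the sources used here, and the separate alignment to the human genome was not analysed here. Columns were assigned to samples by their labels, and 0 were not used. Tests covered the 290 miRNAs present in 40% or more of the 144 libraries. Library sizes were all counts, TMM factors were taken over the 144 libraries, and levels are log2(CPM + 1).

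Outcomes were compared with the edgeR 4.0.16 quasi-likelihood test in R 4.3.3, with dose as a factor, in the 24 libraries only. SEs are the log2 (Fold change) divided by the root of F. p-values were adjusted over the 290 by Benjamini and Hochberg at a threshold of 0.05. Interactions of outcome with dose and with sex, and days 1, 2 and 6, were fitted in the same way. Library measures were tested by exact two-sided permutation within doses. Named miRNAs are the 12 with the smallest p and counts in 12 or more libraries (none was called). Members of the study's top panels and survival network hubs, the first 3 tested of each list and the 5 most abundant were also named. Others named (the 3 higher in survivors, other arms, calls in females, called interactions, list members with the smallest p) were chosen after their values were seen. The animals and lists were chosen with earlier results of these data known.

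In simulated counts for this comparison with 200 changed miRNAs over 4 draws of 290, the test recovered 22.5% of log2 changes of size 1, 80% of size 2 and 92.5% of size 3, and 3 of 960 unchanged miRNAs were called. Simulated libraries had one composition, so the recovery in the data may be lower. Replicates are different animals with one library each. Alternatives were other scalings (TMM in the 24 libraries, DESeq2 size factors, library totals), filters, DESeq2 1.42.0, limma 3.58.1 with pseudocounts of 1 and 10, covariates, sexes, all 36 animals, and leaving out animals. The alternatives for females alone, the leave-one-out and library-total interactions and the library totals of later days were added after the data were seen. Reads and human samples were not analysed here.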

Additional observations from a re-analysis of the deposited data

Results flagged for a closer look

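The dependence of the outcome difference on dose was past the threshold for miR-192-5p and miR-122a-5p (adjusted p = 0.0116 each). Without RA2284F neither was called. Survivors were all female at 7 Gy and all male at 7.5 Gy, so dose and sex cannot be told apart here.

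The 3 groups of 4 animals of one dose and outcome were each examined for 19 measures (14 miRNA levels and 5 library measures). In 4 of these 57 sets of values 1 animal lay far from the other 3. Chance gives about 1 in 20, but in 3 of the 4 the other animals were all at 0, where any single count stands apart and that share does not apply. Survivor RA2592M at 7.5 Gy stood apart with a miR-185-5p level of 2.12 and a miR-122a-5p level of 2.45, where the other 3 survivors were at 0. Deceased RA0456F at 7 Gy had a miR-122a-5p level of 2.57 with the other 3 at 0. Both animals had the deepest library of their group (1018281 and 2921832 counts). Deceased RA2257F at 7 Gy had a log2 TMM factor of -0.70 against 0.70 to 0.98 in the other 3.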

How the results depend on the processing

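No paired analysis was possible because survivors and deceased animals are different NHPs, and their replicate numbers follow sample order alone, so an equal number pairs no animals. The count of 0 calls among 290 became 2 without the filter (miR-18a-3p and miR-345), 2 with DESeq2 (miR-18a-3p and miR-182) and 7 in females, and 0 to 1 when each animal was left out. miR-345 had 0 counts in survivors and 11 in 4 deceased animals. The count at an unadjusted p under 0.05, 15, became 46 without the filter (508 tested), 5 with at least 10 counts in at least 11 libraries (141 tested), 27 in females, 8 in males, and 11 to 23 when each animal was left out. Leaving out RA2265F gave 16 and RA2709M 15. The 2 interactions of outcome and dose became 4 with library totals and 0 to 3 with an animal left out. Signs changed with library totals for miR-423-3p (0.19), miR-451 (0.34), miR-192-5p (0.23) and miR-122a-5p (0.14). In females they changed for miR-192-5p (1.32) and miR-122a-5p (1.93). In males they changed for miR-1306-5p (0.16), miR-423-3p (0.043) and miR-92b-3p (0.24). With the haemolysis covariate they changed for miR-451 (0.22) and miR-122a-5p (0.13). The haemolysis score is itself built from the level of miR-451, so nothing is drawn from the change of miR-451. With an animal left out miR-122a-5p ran from -2.92 to 0.56 and miR-451 from -0.42 to 0.14. The causes were not tested. All other counts (outcome by sex, library measures, days 1, 2 and 6) stayed at 0 calls. miRNAs with a few counts, such as miR-18a-3p and miR-122a-5p, were measured with little precision.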
